A study of Homo sapiens with 6 samples.

Results

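This account covers the SR proteins, the hnRNP proteins, the SF3A and SF3B complex subunits with SF3A or SF3B symbols, the U2AF heterodimer and RBM39. They were measured in SKOV3ip1, an established human cell line derived from the ovarian carcinoma line SKOV3. Cells had received an siRNA against STAT3 (siSTAT3, 3 arrays) or a control siRNA (siCon, 3 arrays), and no time or dose is given in the labels. Total RNA was copied into biotin-labelled cRNA and read on single-colour Illumina bead arrays. The members are all probes whose platform gene symbol starts with SRSF, HNRNP, SF3A or SF3B, or is RBM39, U2AF1 or U2AF2. After 4 pseudogene probes were left out, 46 genes with 73 probes remained, of 18849 named genes and 48803 probes on the array. They comprise 12 SR genes, 22 hnRNP genes, 9 SF3 genes, and RBM39 with both U2AF genes. No probe carried an older SFRS symbol in the annotation used here.

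Splicing removes introns in a spliceosome assembled anew on each intron. U2AF2 binds the polypyrimidine tract and U2AF1 the AG at the end of the intron, after which the SF3A and SF3B complexes, as parts of the U2 small nuclear ribonucleoprotein, hold the branch site. SR proteins bind exonic enhancers and mostly favour the use of nearby splice sites, while many hnRNP proteins coat the nascent transcript and often oppose that use. STAT3 carries signals from cytokine receptors to the genome as a transcription factor, and the comparison asks which transcripts differ after its siRNA in these cells. With the siSTAT3 and siCon groups alone, loss of STAT3 and other effects of the siRNA cannot be told apart.

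STAT3 itself fell on each of its 3 probes. The brightest gave 589, 549 and 667 normalised intensity units on the siSTAT3 arrays, against 2778, 2241 and 2544 on the siCon arrays, so that 23.9% of the control intensity remained (log2 change -2.07 ± 0.11 SE, adjusted p = 2.42e-07 over probes). Nothing in the labels states that samples of a group came from separate cultures, so p-values reflect a spread that could be purely technical. Within-group correlations averaged 0.995 to 0.996 for siSTAT3 arrays and 0.989 to 0.992 for siCon arrays, siCon replicate 3 being the lowest. Of the markers listed for ovarian carcinoma epithelium, 14 of 15 were tested and 9 lay above 2 times the median probe intensity of 94.8, with 5 changes above 0 and 9 below (median -0.03). The 1 that passed was KRT8, a simple epithelial keratin, which fell (log2 change -0.52, adjusted p = 0.0458). None of 6 tested leukocyte and none of 6 tested endothelial markers lay above that level. Among 9 tested fibroblast and mesothelial markers LRRN4 alone did, and it fell (-0.52, adjusted p = 0.0191). The summed intensity of that last list was 1367 to 1416 on siSTAT3 arrays and 1571 to 1763 on siCon arrays. Without LRRN4 the sum of the other 8 was 795 to 810 on siSTAT3 arrays and 785 to 866 on siCon arrays, and the part of these markers in the results below was not tested.

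After STAT3 siRNA, 1 splicing factor gene fell, HNRNPA0, and 1 rose, RBM39, while the other 44 did not pass. In bulk RNA, a change in the share of cells that express a gene and a change in RNA per cell cannot be told apart. A gene is called here when limma's adjusted p over all 14145 genes tested is below 0.05, and each gene is represented by its brightest probe. The 2 called genes are 4.35% of the 46 members, where 1.46% of all genes tested were called (0.396% higher and 1.07% lower in siSTAT3). At an unadjusted p below 0.05 there were 8 members (17.4%), against 12.1% of all genes, and the groups did not overlap for 9 members (19.6%), against 17.2% of all genes. The median log2 change was -0.02 over the members and 0.01 over all genes tested. For 39 of the 46 genes the 95% interval of the change lay inside a 1.5-fold change in either direction, and for all 46 inside 2-fold.

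**Figure D1:**
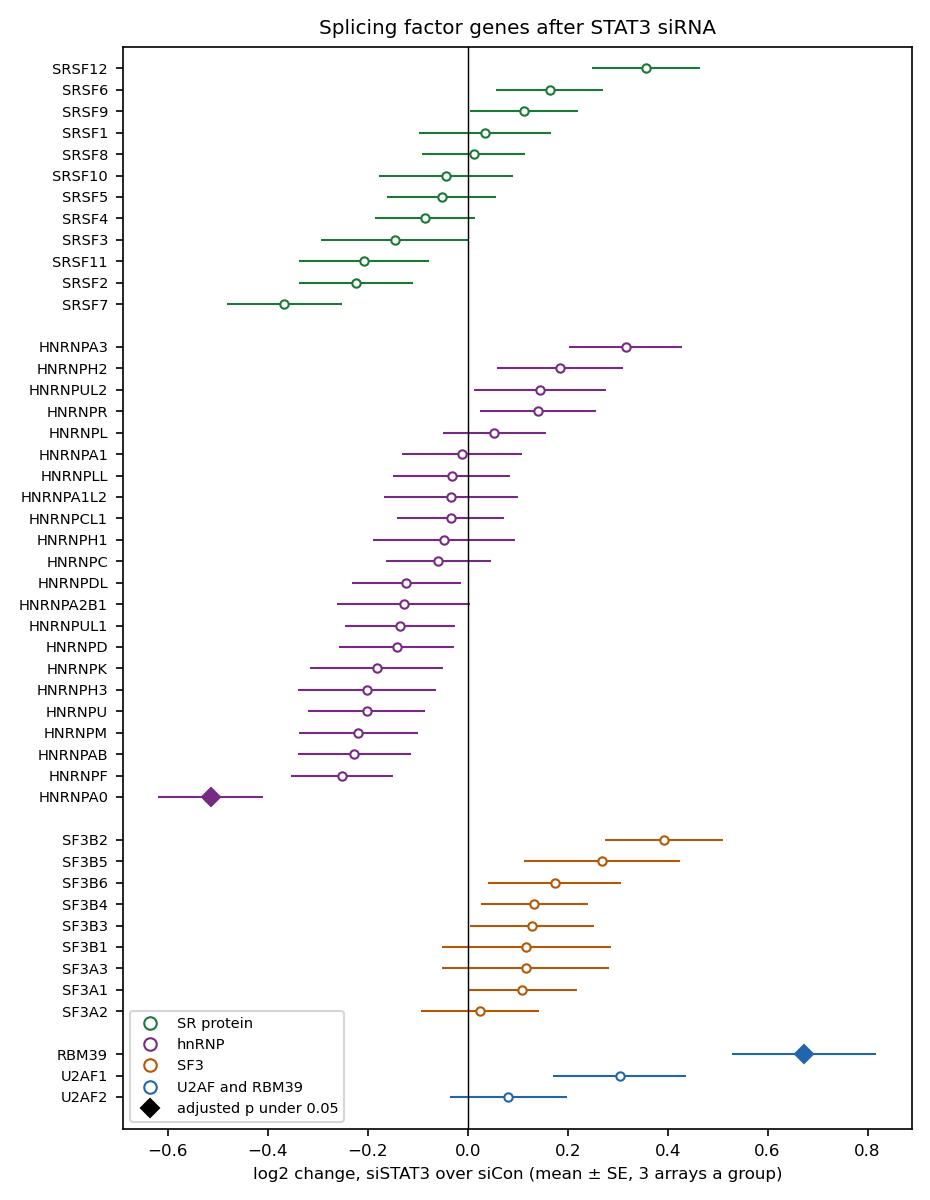
Log2 change (siSTAT3 over siCon, mean ± SE, 3 arrays a group) of the 46 splicing factor genes, by class and in order of size. Filled diamonds mark the 2 genes with an adjusted p below 0.05, RBM39 at 0.67 and HNRNPA0 at -0.51, and all 9 SF3 genes lie above 0.

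HNRNPA0, a small relative of hnRNP A1 that binds AU-rich elements of messenger RNAs and is phosphorylated by the stress kinase MAPKAPK2, had 1 probe (ILMN_1753279). Its normalised intensity was 2535, 2381 and 2384 on the siSTAT3 arrays, against 3288, 3367 and 3786 on the siCon arrays. Every siSTAT3 value was lower than every siCon value, and the gap between the groups was wider than the range within either. The mean was 2433 ± 88.0 in siSTAT3 and 3481 ± 268 in siCon (SD, n = 3 each), a log2 change of -0.51 ± 0.10 SE (adjusted p = 0.0218). The change was -0.45 without siCon replicate 3. Leaving out siSTAT3 replicate 1, 2 or 3 ended the call (adjusted p = 0.0915, 0.126 and 0.14), in fits where the change stayed between -0.54 and -0.50 and 0.431% to 0.58% of all genes were called.

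The stretch before the HNRNPA0 start is shown because this is the one called member whose promoter the RefSeq table used here holds. The 250 bases upstream of the start (GRCh38.p14, chr5:137754364-137754613, minus strand, 5′ to 3′) were searched for TTCNNNGAA, the palindromic core bound by STAT dimers, which reads the same on both strands.
HNRNPA0: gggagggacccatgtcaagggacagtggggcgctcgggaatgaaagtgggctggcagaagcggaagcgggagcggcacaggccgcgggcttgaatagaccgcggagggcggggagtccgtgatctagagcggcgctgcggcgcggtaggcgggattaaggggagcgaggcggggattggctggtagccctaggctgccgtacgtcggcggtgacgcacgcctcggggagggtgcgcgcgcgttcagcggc
These letters hold no TTCNNNGAA, so no base is in capitals. The table gives 57 such promoters for 42 member genes, some with several starts, and 3 of the 57 (5.26%) held a match, against 6.57% of all 35116 promoters of the same length. Those 3 are shown as the sites where such a match does occur among the members, with the match in capitals and its flanks in lower case.
HNRNPR: ctggaagcagTTCCGGGAAaccccgcgtg
HNRNPH1: ccgcgagtggTTCGCTGAAtctcggcacc
SF3B1: cttaactcccTTCGTAGAAtccactttcc
The matches begin 70 bases before the single listed start of HNRNPR (window chr1:23344336-23344364), 95 bases before 1 of 4 starts of HNRNPH1 (chr5:179623478-179623506) and 206 bases before 1 of 2 starts of SF3B1 (chr2:197435281-197435309), all on the minus strand. The other 3 HNRNPH1 promoters and the other SF3B1 promoter held none. None of these genes passed, with log2 changes of 0.14 for HNRNPR, -0.05 for HNRNPH1 and 0.12 for SF3B1. A match is a description of the letters only. HNRNPA1, RBM39, SF3B3 and SRSF2 were not searched.

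RBM39, a splicing factor built like U2AF2 that also acts as a transcriptional coactivator and is the protein degraded by aryl sulphonamide drugs, had 2 probes. On the brighter one (ILMN_2411963) the normalised intensity was 971, 1074 and 1116 on the siSTAT3 arrays, against 834, 661 and 521 on the siCon arrays. The groups did not overlap, and the siCon arrays spread more widely than the siSTAT3 arrays. The means were 1054 ± 74.7 in siSTAT3 and 672 ± 157 in siCon (SD, n = 3 each), a 1.59-fold rise (log2 change 0.67 ± 0.14 SE, adjusted p = 0.0295). On the other probe (ILMN_1696935) it was 110, 99.6 and 111 on the siSTAT3 arrays, against 99.99, 98.7 and 109 on the siCon arrays. Those values lie near the median of all probes, and the groups overlapped (0.06 ± 0.10, adjusted p = 0.929 over probes). The difference between the probes' changes was 0.62 ± 0.17 and did not pass over all 5219 probe pairs tested (unadjusted p = 0.00152, adjusted p = 0.165), so an unequal change of the probes is not shown by that test. The difference passed with the replicate number as a block (adjusted p = 0.034). Without siCon replicate 3, the lowest array on the brighter probe, the change was 0.50 with an adjusted p of 0.0229. In that fit 2.88% of all genes passed, against 1.46% with all arrays. The RBM39 call was lost under median scaling (adjusted p = 0.0511), with both probes averaged (0.36, 0.115), without siCon replicate 2 (0.0525) and without siSTAT3 replicate 1, 2 or 3 (0.104, 0.149 and 0.199).

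U2AF1, the subunit that reads the end of the intron, gave 1278, 1309 and 1370 on the siSTAT3 arrays, against 1182, 1226 and 840 on the siCon arrays, on its brighter probe. Its second probe gave 840, 985 and 902 in siSTAT3, against 766, 682 and 504 in siCon. Whether these probes also match U2AF1L5, an entry annotated as a near-identical copy of U2AF1, was not tested. On both probes all siSTAT3 arrays lay above all siCon arrays and siCon replicate 3 was the lowest. Neither passed (0.30 with an adjusted p of 0.374 over genes, and 0.50 with an adjusted p of 0.121 over probes). Without siCon replicate 3 these changes were 0.13 and 0.33. Its partner U2AF2, which binds the polypyrimidine tract, changed by 0.08 on its brighter probe, with an interval from -0.17 to 0.33, and did not pass. The dimmer U2AF2 probe gave 122, 123 and 112 in siSTAT3, against 156, 159 and 129 in siCon, close to the median of all probes (-0.31, adjusted p = 0.276 over probes).

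**Figure D2:**
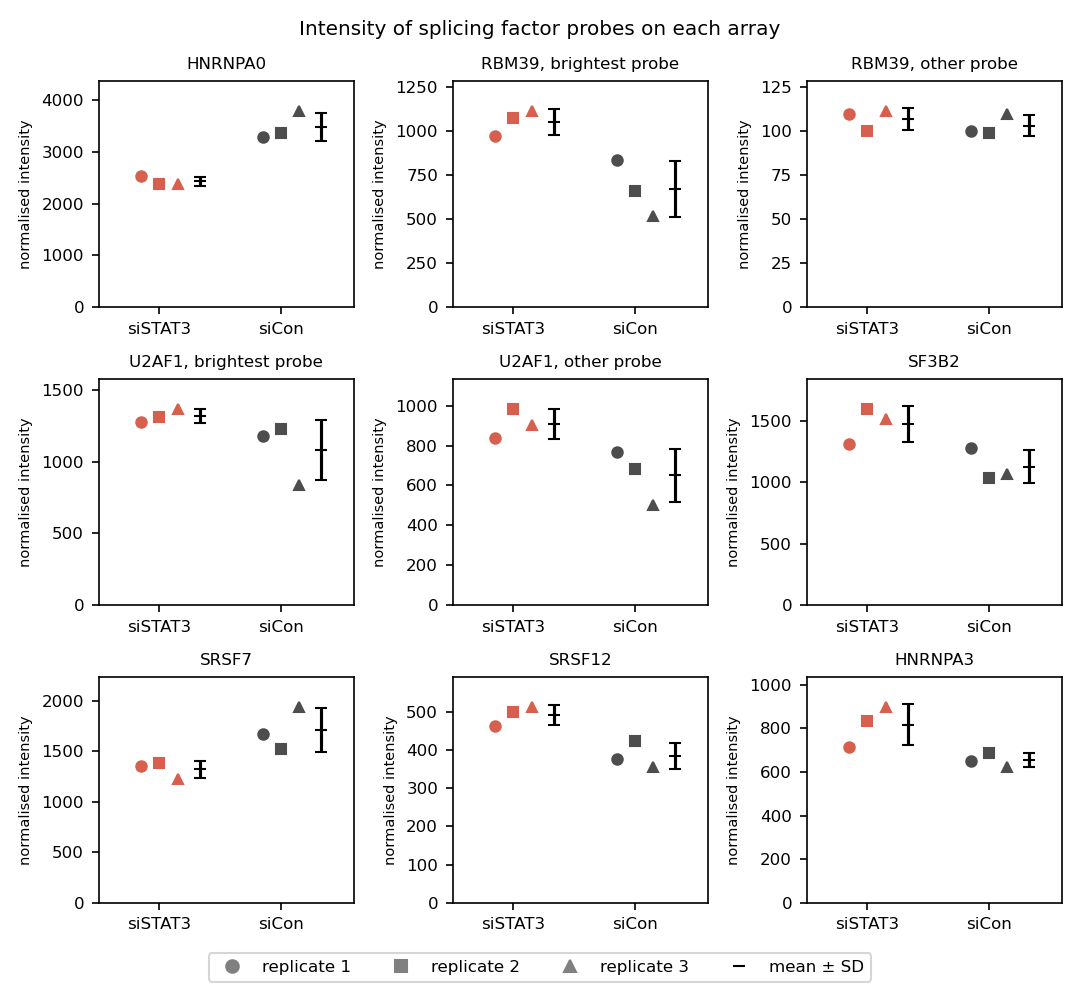
Normalised intensity on each array (points, shaped by replicate number) with mean ± SD (bars) for 9 probes, siSTAT3 left of siCon. HNRNPA0 is lower on every siSTAT3 array, the brighter RBM39 probe is higher on every one, and the other RBM39 probe stays near the median of all probes in both groups.

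Among SF3 genes none passed, and all 9 had a change above 0, where 51.7% of all genes tested did. Their median was 0.13 and their range 0.02 to 0.39. SF3B2, a subunit that contacts the pre-mRNA beside the branch site, gave 1313, 1597 and 1514 on the siSTAT3 arrays, against 1278, 1032 and 1063 on the siCon arrays. Its groups did not overlap, with siSTAT3 replicate 1 and siCon replicate 1 lying close together (0.39 ± 0.12, adjusted p = 0.136). SF3B5, a small subunit of the SF3B complex, gave 2598, 2745 and 2940 in siSTAT3, against 2515, 2840 and 1678 in siCon. These groups overlapped, siCon replicate 3 lying far below the rest, and the change was 0.27 (adjusted p = 0.549) with all arrays and 0.05 without that array. The shared sign of the SF3 genes was lost without siCon replicate 3, where the median was 0.03. In that case 6 of 9 genes lay above 0, against 50.8% of all genes. The shared sign was also lost with array weights (7 of 9 above 0), without siSTAT3 replicate 3 (7 of 9) and without siCon replicate 2 (8 of 9). SF3B1, the subunit that encloses the branch site adenosine, had 3 probes at 0.12, 0.07 and 0.05. Its brightest probe was at 0.29 without siCon replicate 3, so it moved up where SF3B5 moved down. The last SF3B1 probe (112 to 127 over the arrays) and SF3A1 lay near the median of all probes, where a change would hardly show.

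Of 22 hnRNP genes 1 fell and none rose, where 1.07% of all genes tested fell. A change below 0 was seen in 17 of the 22 (median -0.09), against 48.3% of all genes tested. HNRNPA3, a relative of HNRNPA2B1, gave 715, 835 and 900 on the siSTAT3 arrays, against 648, 688 and 625 on the siCon arrays. The groups did not overlap, yet the change of 0.32 ± 0.11 did not pass (adjusted p = 0.236). HNRNPF, which binds runs of G, was at 206 to 212 in siSTAT3 and 234 to 266 in siCon (-0.25, adjusted p = 0.326). The dimmer probe of HNRNPU, a nuclear matrix protein, read 294, 249 and 268 in siSTAT3, against 427, 384 and 312 in siCon. That change of -0.46 did not pass over probes (adjusted p = 0.104), nor did the brighter HNRNPU probe (-0.20), though the dimmer probe passed without siCon replicate 3, with array weights and with the replicate number as a block. HNRNPA1 (-0.01), HNRNPA2B1 (-0.13) and HNRNPC (-0.06), core packaging proteins of nascent transcripts, did not pass, nor did HNRNPK (-0.18), which binds runs of C. Their dimmer probes were at -0.18 (HNRNPA1), 0.004 (HNRNPA2B1), -0.23 (HNRNPC) and 0.03 (HNRNPK), and none passed over probes. On the dimmer HNRNPC probe every siSTAT3 array lay below every siCon array (adjusted p = 0.43 over probes). HNRNPA1L2 and HNRNPCL1 are close copies of HNRNPA1 and HNRNPC and lay below 2 times the median of all probes, and whether their probes read them alone was not tested.

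Among 12 SR genes none passed, 5 lying above 0 and 7 below (median -0.05). SRSF7, which also serves as an adaptor for mRNA export, gave 1351, 1386 and 1231 on the siSTAT3 arrays, against 1669, 1522 and 1945 on the siCon arrays (-0.37 ± 0.11, adjusted p = 0.157). SRSF12, an SR-like protein described as a splicing repressor, gave 463, 498 and 513 in siSTAT3, against 377, 422 and 354 in siCon (0.36 ± 0.11, adjusted p = 0.138). The groups did not overlap for either gene. They did not overlap for SRSF2 either, with 11912, 10358 and 11450 in siSTAT3 against 12338, 12200 and 14957 in siCon (-0.22, adjusted p = 0.469). The founding member SRSF1 was at 0.04 with an interval from -0.25 to 0.32, and SRSF3, SRSF4, SRSF5, SRSF6, SRSF8, SRSF9, SRSF10 and SRSF11 lay between -0.21 and 0.16.

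The classes separated most on siCon replicate 3. For each gene the deviation from its mean over the 6 arrays was taken, and the class median is given in log2 units. RBM39 and the U2AF genes were at 0.11, 0.14 and 0.21 on siSTAT3 arrays 1 to 3, against 0.00, -0.02 and -0.50 on siCon arrays 1 to 3. SF3 genes were at 0.06, 0.02 and 0.14 on the siSTAT3 arrays, against 0.01, 0.00 and -0.27 on the siCon arrays. In both classes siCon replicate 3 lay clearly below the other arrays. The hnRNP genes went the other way, at -0.03, -0.08 and -0.04 in siSTAT3 against 0.00, -0.06 and 0.21 in siCon. SR genes were at -0.01, -0.09 and 0.02 in siSTAT3 against -0.06, 0.00 and 0.17 in siCon. Over all genes tested the median on siCon replicate 3 was -0.01. That array was the highest of the 6 for 14 of 22 hnRNP genes and 7 of 12 SR genes, against 23.2% of all genes. It was the lowest for 7 of 9 SF3 genes and for RBM39, U2AF1 and U2AF2, against 25.8% of all genes. These are descriptions of 1 array, with no test. Without it 9 of 22 hnRNP genes lay above 0 (median -0.02) and 7 of 12 SR genes did (median 0.03). HNRNPA0 and RBM39 still passed, in a fit where 2.88% of all genes did.

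**Figure D3:**
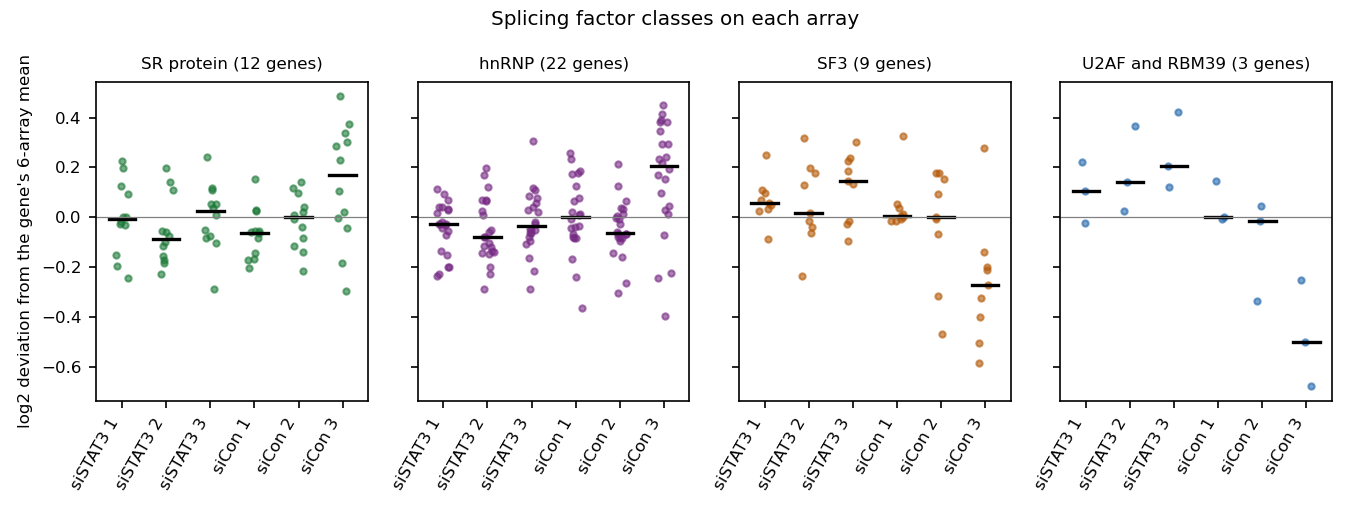
Log2 deviation of each splicing factor gene (points) from its mean over 6 arrays, by class and array, with the class median (bars) and siSTAT3 arrays left of siCon arrays. On siCon replicate 3 the SF3 median is -0.27 and that of RBM39 and U2AF -0.50, while the hnRNP median is 0.21 and the SR median 0.17.

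**Figure D4:**
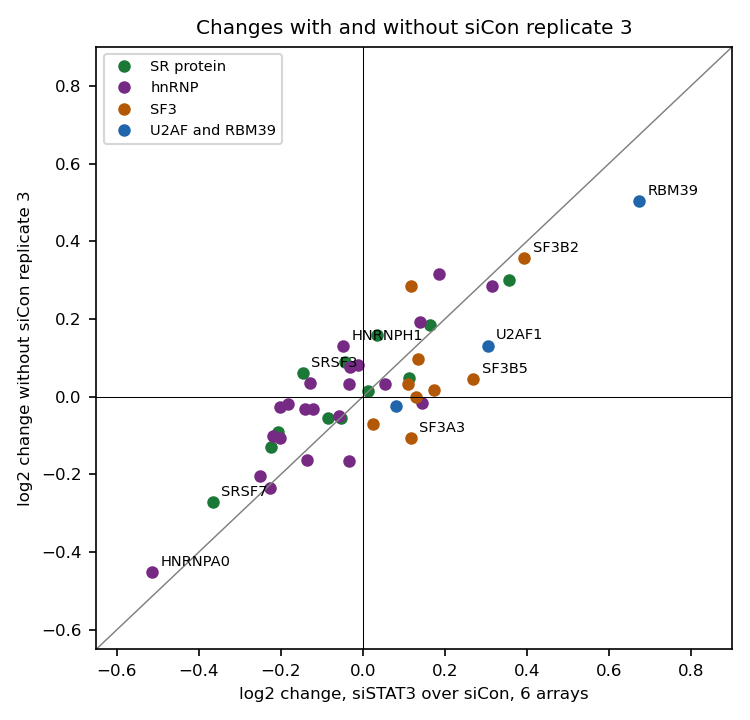
Log2 change (siSTAT3 over siCon) of each splicing factor gene without siCon replicate 3 (vertical axis) against the change over all 6 arrays (horizontal axis), with the line of equality. HNRNPA0 (-0.51 and -0.45) and RBM39 (0.67 and 0.50) stay apart from the others, while SF3B5 moves to 0.05 and SF3A3 to -0.11.

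Probes of one gene can read different transcript ends, so the 70 member probes that passed the filter on low values were also tested one by one. The 2 that passed over 29282 probes, of which 0.874% passed, were the HNRNPA0 probe and the brighter RBM39 probe (adjusted p = 0.0216 and 0.0351). Unadjusted, 13 member probes had a p below 0.05, 6 higher and 7 lower, where 10.2% of all probes did. More than 1 tested probe was available for 22 genes, giving 24 pairs with the brightest probe, and both probes changed with the same sign in 16 pairs and with opposite signs in 8. No member pair passed limma's test of the difference between probes, which 0.249% of all pairs did, and 2 member pairs, those of RBM39 and U2AF2, had an unadjusted p below 0.05, as did 9.24% of all pairs. The remaining 3 member probes, of HNRNPA1L2, HNRNPCL1 and SRSF10, did not pass the filter and were at 64.4 to 94.8 on every array.

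**Figure D5:**
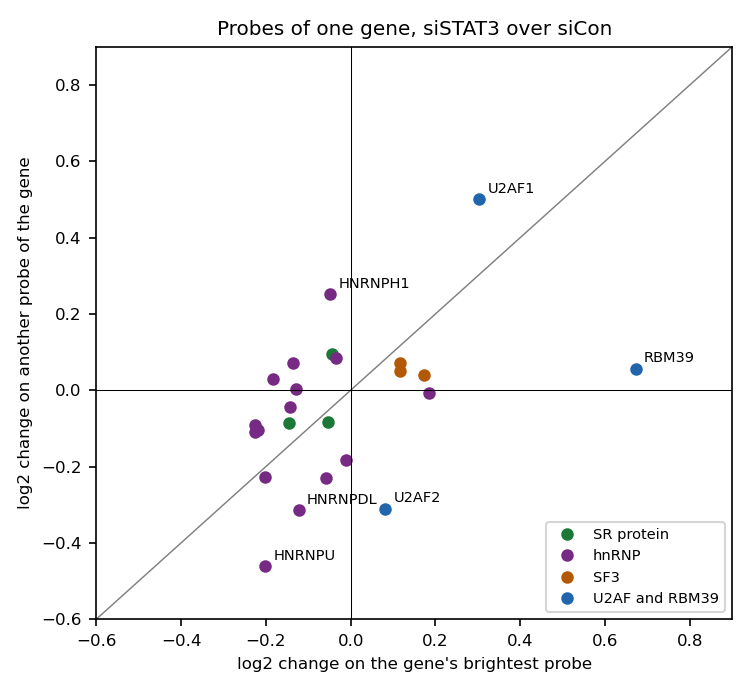
Log2 change (siSTAT3 over siCon) on another probe of a splicing factor gene (vertical axis) against the change on its brightest probe (horizontal axis) for 24 pairs, with the line of equality. RBM39 lies farthest below the line, at 0.67 and 0.06, and U2AF1 is above 0 on both of its probes.

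Around these factors, 146 genes of 6 lists of the splicing machinery were tested, and TAF15 was the 1 that passed (0.685%, against 1.46% of all genes tested). TAF15, an RNA-binding protein that also takes part in transcription, gave 3488, 3656 and 3561 on the siSTAT3 arrays, against 2264, 2375 and 2251 on the siCon arrays. The groups lay far apart relative to the spread within each, and the rise was 1.55-fold (0.64 ± 0.10, adjusted p = 0.00326). Its other probe gave 0.42 (adjusted p = 0.0934 over probes), with all siSTAT3 arrays above all siCon arrays. TAF15 passed under each of the 15 alternatives run, with adjusted p-values from 0.000365 to 0.0365. It was the 1 of 44 other alternative splicing regulators that passed, in a list with a median of -0.03.

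The other 5 lists held no called gene. Of 21 snRNP core and LSm proteins, median 0.09, SNRPN had the smallest p (0.44, adjusted p = 0.0633). In the list of U4/U6.U5 and catalytic spliceosome proteins (41 tested, median 0.00) it was DDX23, a helicase (-0.39, adjusted p = 0.0955). Among 14 tested U2 and branch site factors that are not members, median -0.04, it was RBM17 (-0.30, adjusted p = 0.252). That list holds PHF5A, an SF3B subunit whose symbol does not meet the member rule. Its groups did not overlap, and the change of 0.24 did not pass (adjusted p = 0.326). The 14 tested genes of the list of splicing factor kinases and phosphatases, which also holds the import receptor TNPO3, had a median of 0.01 and were led by AKT1 (-0.33, adjusted p = 0.335). The 14 tested genes of the exon junction complex and of nonsense-mediated decay had a median of 0.00, led by the export adaptor ALYREF (-0.38, adjusted p = 0.17).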

How the data were processed

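Single-colour Illumina arrays of 3 siSTAT3 and 3 siCon samples were analysed, grouped by their titles. The authors deposited unnormalised intensity and, in a second table, processed intensity for every probe. Per the submitters' processing notes BeadStudio was used (version unknown). Background subtraction is not described in the labels or files, and remaining background compresses the changes of dim probes. Processed columns share a median of 94.2, on the scale of the unnormalised ones, and rank probes like them. Their sorted values differed from those of the first column by at most 1.72 intensity units. They were therefore taken as linear and quantile-normalised, by an unknown method.

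The unnormalised intensities were quantile-normalised and log2-transformed with limma 3.58.1 (R 4.3.3). The filter on low values kept probes whose mean exceeded the 40th percentile (intensity 89.9). Of all probes, 28098 had 1 gene symbol, 13 several and 20692 none. Symbols were updated through RefSeq (GRCh38.p14), 28059 by Entrez ID, 14 by accession, and 25 kept the platform's symbol. Groups were compared by limma's moderated test, two-sided, and p-values were adjusted by Benjamini-Hochberg (threshold 0.05) over 14145 genes, 29282 probes and 5219 pairs of probes of one gene. A pair is the brightest probe minus another, in each array. The procedure was run on simulated data with known changes, and its recovery of changes as small as those of the members is not given here. The number of arrays limits precision.

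Values were given for STAT3, for each called member on each probe, for the 2 members of smallest p in each class, for members with an unadjusted p below 0.05, and for called or leading genes of each list. SRSF2, the HNRNPU probes, the dimmer U2AF2 probe and other members named beside these were chosen after their values were seen. Members and lists were chosen with earlier results of these data known. The 15 alternatives comprised the authors' processed values, median scaling, normexp background correction (offset 50), no filter, a 60th percentile filter, averaging a gene's probes, array weights, trended robust variance, a replicate block, and leaving out each array.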

Additional observations from a re-analysis of the deposited data

How the results depend on the processing

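The number of genes called among all tested was 207, and it was 437 with array weights and between 61 and 407 when 1 array was left out, the highest without siCon replicate 3. Among splicing factor genes 2 passed, 1 under median scaling, 1 with a gene's probes averaged, and 0 to 2 when 1 array was left out. HNRNPA0 passed under 12 of 15 alternatives (changes from -0.55 to -0.45) and RBM39 under 9 of 15 (0.36 to 0.84), both keeping their sign in all 15. Leaving out any 1 siSTAT3 array ended both calls, while leaving out any 1 siCon array kept that of HNRNPA0, and ended that of RBM39 for siCon replicate 2 alone; the cause was not tested. Of member probes 2 passed, 1 under median scaling and 0 to 3 with 1 array left out. The dimmer HNRNPU probe joined the other two with array weights, with a replicate block and without siCon replicate 3. The median change over members was -0.02, and 0.024 under median scaling, which moved the median of all genes from 0.01 to 0.03. Same-numbered arrays of the groups correlated at 0.0486, 0.179 and 0.0697 in their deviations from the group means, each array best with its own number, which is a hint from the data and not a pairing in the design. With the replicate number as a block 283 genes passed, among them HNRNPA0 and RBM39, and 1 member probe pair did in place of 0, that of RBM39 (adjusted p = 0.034). The block changed no other call among the member genes. The brighter U2AF2 probe lay between -0.024, without siCon replicate 3, and 0.17, without siCon replicate 1, and the cause was not tested. Members near the median of all probes (3 genes under an intensity of 189.6) could hide a change.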

Other observations

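The 4 pseudogene probes left out of the members were tested as probes, and none passed. They gave log2 changes of 0.29 for HNRNPA3P1, 0.16 for HNRNPA1P33, -0.12 for HNRNPKP3 and -0.15 for HNRNPA1P10, with adjusted p-values from 0.535 to 0.773. HNRNPA3P1 had the sign of HNRNPA3 (0.32), and whether their probes tell the 2 apart was not tested. The 250 bases before the start had a median GC content of 64.8% over the 57 promoters of member genes in the RefSeq table and 58% over all promoters in it.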
